A study of Rattus norvegicus with 8 samples.

Results

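Genes for protein folding in the endoplasmic reticulum (ER), for the unfolded protein response and for heat shock proteins were examined in livers of 21-day-old male Sprague-Dawley rats. The list held 36 genes, which were 15 ER lumen chaperones and folding enzymes, 3 genes of ER-associated degradation, 3 sensors or transcription factors of the unfolded protein response, 4 genes of the PERK-ATF4 arm, 8 cytosolic heat shock proteins, 2 mitochondrial chaperonins and 1 heat shock factor. Each gene was represented by its brightest probe in Cy5, the channel that held liver RNA, among 30367 probes on the array. A named probe was found for 32 genes, and none was matched to Manf, Edem1, Hspa1b or Dnajb1, which were not analysed here. Of the 32 genes, 30 were tested among 10567 genes or unnamed probes that passed the filter on dim probes. Ern1, the IRE1 sensor of the ER membrane, was not well above background on any of the 8 arrays. Hsph1, a cytosolic co-chaperone of the HSP110 family, was well above background on 2 of the 4 0.5MAhR arrays and 2 of the 4 Control arrays, short of the 3 arrays of a group that the filter required.

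The 0.5MAhR pups were born to and nursed by dams dosed through gestation and lactation. The dose combined 0.5 mg/kg/day of a mixture (organochlorine pesticides, PCBs and methyl mercury) with aryl hydrocarbon receptor (AhR) agonists at 6.3 ng/kg/day, counted as toxic equivalents of the dioxin TCDD. Dams of the Control pups received corn oil, and neither group was cross-fostered. Each array held liver RNA pooled from 2 pups of a group, so that 8 pups gave 4 arrays in each group. The 0.5MAhR arrays are numbered 1 to 4 and the Control arrays 5 to 8, as in the labels. On all 8 arrays the Cy3 channel held universal rat reference RNA, made from 14 cell lines. The measurement is therefore a log2 ratio of liver signal over reference signal, and 0 means equal normalised signals in both channels. The arrays lay on 1 slide in 2 columns, with 0.5MAhR 2 and 4 and Control 5 and 7 in column 1 and 0.5MAhR 1 and 3 and Control 6 and 8 in column 2. Values of many genes differed between the columns, so slide column was part of the fit, and differences within each column are given for several genes. The labels do not tie pups to litters, and a p-value here measures the spread between pooled samples.

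The ER lumen is where secreted and membrane proteins fold, with the help of the HSP70 family member BiP (Hspa5), the HSP90 family member GRP94 (Hsp90b1), the lectin chaperones calreticulin (Calr) and calnexin (Canx), and protein disulfide isomerases. When unfolded proteins accumulate there, the sensors ATF6, IRE1 and PERK raise the transcription of chaperone genes through ATF6 and spliced XBP1 and of stress genes through ATF4 and CHOP (Ddit3). Cytosolic unfolded proteins act instead through heat shock factor 1 (Hsf1), which binds heat shock elements of genes such as Hspa8 and Hsp90aa1. The hepatocyte secretes most plasma proteins and is rich in ER.

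Known control elements of these arms were searched for in the promoters. The RefSeq promoter table of build GRCr8, with 250 bases before and 50 bases after each gene's start, held 28 of the 36 genes. The ER stress element, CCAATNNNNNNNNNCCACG on either strand, was present in 6 of 12 promoters of ER lumen genes (Calr, Canx, Creld2, Dnajc3, Hsp90b1 and Hspa5), in that of Xbp1, and in none of 6 promoters of cytosolic genes. It was found in 21 of 27457 promoters in all, or 0.0765%. The related element ATTGGNCCACG was present in Dnajb11, Hyou1 and Herpud1 and in 15 promoters in all, or 0.0546%. The heat shock element GAANNTTCNNGAA was present in Dnaja1, Hspa8 and Hsph1 of the cytosolic genes and in both mitochondrial chaperonins, Hspd1 and Hspe1. None of 12 ER lumen promoters held it, and 202 promoters in all did, or 0.736%. The shorter form GAANNTTC, which overlaps it, was in 5 of 6 cytosolic promoters and 1 of 12 ER lumen promoters, that of P4hb, against 8.34% of all promoters. The element TGATGNAAT, a form of the site bound by ATF4 with C/EBP factors, was in 0 of 28 promoters, and 1.05% of all promoters held it. A match describes the letters in this window and is not evidence of binding. For 5 genes whose array values are given in full, the 250 bases before the start are printed 5′ to 3′ on the gene's strand, with the fixed bases of the ER stress element in capitals for Hspa5 (chr3:38452766-38453015, plus strand), Hsp90b1 (chr7:23012294-23012543, minus strand) and Calr (chr19:40213117-40213366, plus strand), and those of the heat shock element in capitals for Hspa8 (chr8:50080264-50080513, plus strand) and Hspe1 (chr9:64084077-64084326, plus strand).
Hspa5: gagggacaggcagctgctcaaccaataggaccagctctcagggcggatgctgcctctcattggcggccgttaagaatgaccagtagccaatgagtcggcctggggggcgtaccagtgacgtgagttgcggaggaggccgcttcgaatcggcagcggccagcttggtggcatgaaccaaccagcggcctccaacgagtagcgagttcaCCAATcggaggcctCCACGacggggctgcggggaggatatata
Hsp90b1: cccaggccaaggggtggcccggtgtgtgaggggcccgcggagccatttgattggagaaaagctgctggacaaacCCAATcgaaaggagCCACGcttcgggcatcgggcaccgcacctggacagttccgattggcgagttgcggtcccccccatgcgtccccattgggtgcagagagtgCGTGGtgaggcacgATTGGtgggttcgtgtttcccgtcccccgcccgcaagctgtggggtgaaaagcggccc
Calr: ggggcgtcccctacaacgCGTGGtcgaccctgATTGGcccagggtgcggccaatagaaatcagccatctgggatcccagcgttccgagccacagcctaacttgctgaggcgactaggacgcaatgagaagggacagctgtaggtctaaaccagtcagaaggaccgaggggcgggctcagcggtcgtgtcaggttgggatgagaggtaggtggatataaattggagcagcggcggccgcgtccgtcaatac
Hspa8: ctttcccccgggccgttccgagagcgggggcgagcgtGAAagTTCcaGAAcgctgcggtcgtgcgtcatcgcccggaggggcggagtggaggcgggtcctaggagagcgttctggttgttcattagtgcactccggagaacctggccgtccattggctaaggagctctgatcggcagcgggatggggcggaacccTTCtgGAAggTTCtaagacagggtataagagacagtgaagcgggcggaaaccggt
Hspe1: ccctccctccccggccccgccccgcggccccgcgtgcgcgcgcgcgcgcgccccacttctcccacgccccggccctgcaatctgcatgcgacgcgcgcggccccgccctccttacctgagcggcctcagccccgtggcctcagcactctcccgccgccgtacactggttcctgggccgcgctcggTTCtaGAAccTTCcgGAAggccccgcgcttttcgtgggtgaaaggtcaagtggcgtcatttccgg
Hsp90b1 carried 2 copies of the ER stress element, on opposite strands. Hspa8 carried 2 heat shock elements apart from each other, and Hspe1 carried 2 that overlapped on opposite strands. Hspe1 and Hspd1 lie head to head, and their promoter windows shared 211 bases, this element included.

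No gene of the set passed the threshold between 0.5MAhR and Control livers. With slide column fitted, 0 of 30 genes had a limma adjusted p under 0.05, where 0.0473% of all genes tested did. Without slide column the count was also 0 of 30, where 0.00946% of all genes did. At an unadjusted p under 0.05 the count was 1 of 30, Atf4, against 6.35% of all genes tested. In 0 of 30 genes did the 4 arrays of 1 group lie wholly above or below those of the other, which happened in 1.32% of all genes. Differences ran between -0.26 and 0.19 on the log2 scale, and 17 of 30 lay above 0, where 46.8% of all genes did. The 95% confidence intervals of the 30 genes lay between -0.48 and 0.45, or between 0.717-fold and 1.37-fold. Log ratio differences beyond these sizes, as processed here, lay outside the interval of every gene tested. Some genes were dim, with net Cy5, foreground less background, of 29.5 to 85.5 for Canx and 43.5 to 95 for Trib3. Sel1l, at 41.25 to 94.75, and Dnajb9, at 49.5 to 107.75, were also dim. The background offset of 50 narrows log ratio differences at such probes, so their intervals do not bound the change in RNA. Each interval is that of its own gene, not adjusted for their number, and covers the spread between arrays with slide column fitted. The median difference was 0.02 over the 30 genes and -0.01 over all genes tested.

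**Figure D1:**
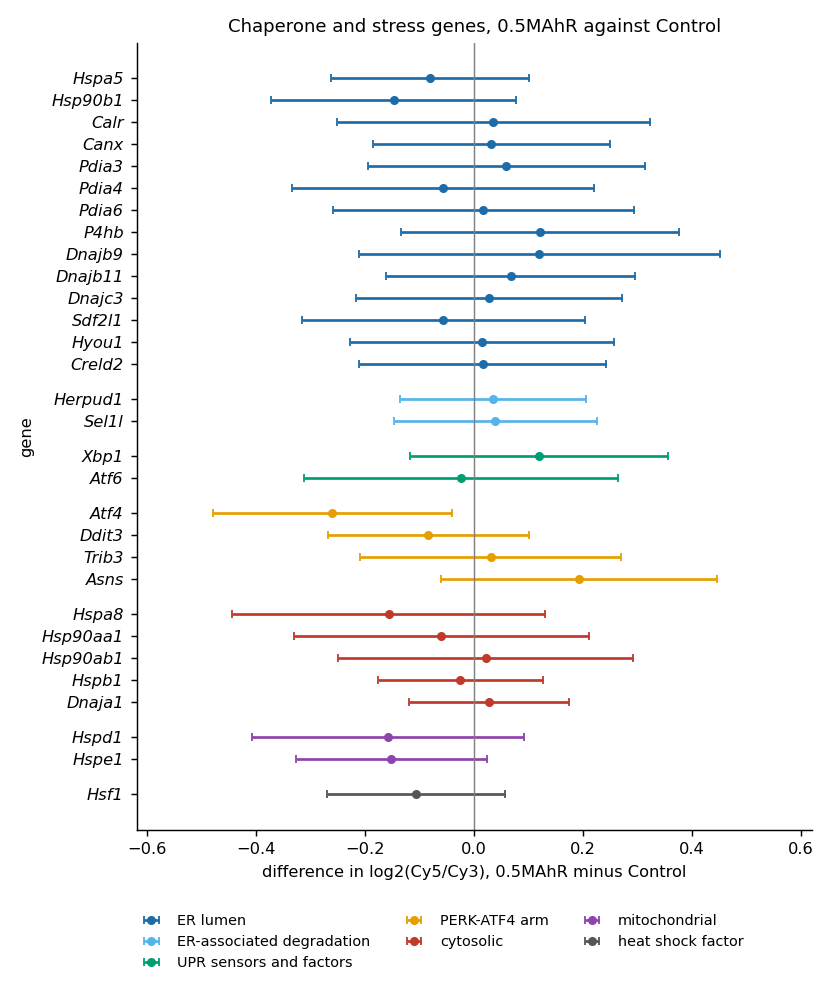
Difference in log2(Cy5/Cy3), 0.5MAhR minus Control, for the 30 genes tested, grouped by role, with 95% confidence intervals from the fit with slide column (4 arrays a group). All intervals but that of Atf4 include 0, and all lie between -0.48 and 0.45.

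Among the ER lumen chaperones, Hspa5 showed no difference beyond the spread between arrays. BiP, its product, is the main HSP70 of the ER and holds the stress sensors inactive. Its log2 ratio was 0.83, 0.68, 1.15 and 0.70 on 0.5MAhR arrays 1 to 4 and 0.83, 0.97, 0.84 and 1.04 on Control arrays 5 to 8. The groups overlapped, with the highest value on 0.5MAhR 3 and the lowest on 0.5MAhR 2. The difference was -0.08 (SE 0.081, adjusted p = 0.923 by limma), which was -0.15 in slide column 1 and -0.01 in column 2.

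Hsp90b1, which encodes GRP94, had log2 ratios of 0.16, 0.29, 0.53 and 0.28 in 0.5MAhR livers and 0.23, 0.50, 0.47 and 0.65 in Control livers. Values overlapped, and the difference of -0.15 had a 95% confidence interval of -0.37 to 0.08 and an adjusted p of 0.885 in limma. P4hb, the protein disulfide isomerase PDI, had 0.90, 0.80, 1.06 and 0.61 in 0.5MAhR livers and 0.43, 0.66, 0.90 and 0.90 in Control livers. Here too the groups overlapped, at 0.84 ± 0.19 in 0.5MAhR livers and 0.72 ± 0.22 in Control livers (SD, n = 4 each), and limma gave an adjusted p of 0.916.

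Calr, which encodes the calcium-binding lectin chaperone calreticulin, had log2 ratios of -0.93, 3.16, -0.43 and 3.05 on 0.5MAhR arrays 1 to 4 and 2.91, -0.88, 3.15 and -0.47 on Control arrays 5 to 8. The values fell into separate levels by slide column and not by group, with 0.5MAhR 2 and 4 and Control 5 and 7, the arrays of column 1, near 3. With column fitted the group difference was 0.04 (95% confidence interval -0.25 to 0.32, adjusted p = 0.977 in limma). It was 0.07 in column 1 and -0.003 in column 2.

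The 14 ER lumen genes tested had differences between -0.15 and 0.12, and 10 of 14 lay above 0. Their median was 0.02, made of -0.08 in slide column 1 and 0.10 in column 2. The sign was the same in both columns in 5 of 14, and in 5473 of all 10567 genes tested. Besides the 4 genes above, these were Canx, which encodes calnexin, the disulfide isomerases Pdia3, Pdia4 and Pdia6, the HSP40 co-chaperones Dnajb9, Dnajb11 and Dnajc3 and the BiP-associated Sdf2l1. The others were Hyou1, a nucleotide exchange factor of BiP, and Creld2, a secreted ER stress protein. Dnajb9, a BiP co-chaperone also known as ERdj4, set the upper end of the intervals, with a difference of 0.12 and a limit of 0.45. Dnajb9 was among the dim genes named above.

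The ER-associated degradation genes Herpud1 and Sel1l, which act in retrotranslocation with the HRD1 ligase, differed by 0.03 and 0.04. Sel1l had log2 ratios of 0.66, 1.23, 0.84 and 1.13 in 0.5MAhR livers and 0.97, 0.69, 1.16 and 0.88 in Control livers. The groups overlapped over nearly their whole range (adjusted p = 0.962, limma). The difference of Sel1l was 0.11 in slide column 1 and -0.04 in column 2. Of the transcription factors of the response, Xbp1 had 0.09, 0.85, 0.41 and 0.71 in 0.5MAhR livers and 0.55, 0.42, 0.53 and 0.09 in Control livers. The lowest value of each group was alike, and the difference was 0.12 (95% confidence interval -0.12 to 0.36, adjusted p = 0.906 in limma). It was 0.24 in column 1 and -0.003 in column 2. Which splice form of Xbp1 was present was not analysed here. The other sensor gene, Atf6, differed by -0.02.

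Atf4, the transcription factor whose translation rises when PERK phosphorylates eIF2α, had the lowest unadjusted p of the 30 genes. Its log2 ratio was -1.08, -0.73, -0.93 and -0.88 in 0.5MAhR livers, against -0.37, -0.74, -0.79 and -0.68 in Control livers. The 3 lowest values were 0.5MAhR 1, 3 and 4, the highest was Control 5, and the groups overlapped. The difference was -0.26 (SE 0.097), equal to 0.835-fold, with an unadjusted p of 0.0245 and an adjusted p of 0.693 in limma. It was -0.22 in slide column 1 and -0.30 in column 2. Leaving out single arrays gave differences between -0.35 without Control 7, with an adjusted p of 0.401, and -0.18 without Control 5. The unadjusted p in limma was then between 0.0025 without Control 7 and 0.0829 without Control 5. It was above 0.05 without 0.5MAhR 1, 0.5MAhR 4, Control 5 or Control 8. With all arrays and no slide column in the limma fit, the unadjusted p of Atf4 was 0.0661. With slide row added to column, 0 of 30 genes had an unadjusted p under 0.05.

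The genes that ATF4 is known to activate lay on both sides of 0. Ddit3, which encodes the pro-apoptotic factor CHOP, had log2 ratios of -0.70, -0.95, -0.92 and -0.91 in 0.5MAhR livers and -0.74, -0.68, -1.02 and -0.70 in Control livers. In each group 3 values were close together and 1 stood apart, 0.5MAhR 1 as the highest of its group and Control 7 as the lowest of its group. Its difference was -0.08 (adjusted p = 0.922, limma). The pseudokinase gene Trib3 differed by 0.03, and the asparagine synthetase gene Asns by 0.19, with an adjusted p of 0.868 in limma. For Asns the 2 slide columns gave 0.04 (column 1) and 0.34 (column 2).

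Of the cytosolic genes, Hspa8 encodes the constitutive HSP70, HSC70. Its brightest probe had log2 ratios of -1.16, -0.04, -0.82 and -0.32 in 0.5MAhR livers and -0.29, -0.46, -0.20 and -0.75 in Control livers. The highest and the lowest value both belonged to 0.5MAhR arrays, on opposite slide columns, and the Control values lay between them. The difference of -0.16 was 0.07 in column 1 and -0.38 in column 2 (adjusted p = 0.904, limma). In Cy5 alone the Hspa8 difference was -0.05, while Cy3, the reference channel, was higher by 0.07 on 0.5MAhR arrays. The 3 other probes of Hspa8 gave differences of -0.10, -0.14 and -0.01.

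Neither HSP90 gene of the cytosol passed. Hsp90aa1, the stress-inducible form, had log2 ratios of -1.30, -1.11, -0.82 and -1.45 in 0.5MAhR livers and -1.02, -1.11, -1.19 and -1.12 in Control livers. The Control values lay within the range of the 0.5MAhR values, and the difference was -0.06 (adjusted p = 0.956, limma). It was -0.17 in slide column 1 and 0.05 in column 2. The other probes of Hsp90aa1 gave group differences of 0.005 and 0.13. Hsp90ab1, the constitutive form, had -1.55, -0.14, -0.93 and -0.06 in 0.5MAhR livers and -0.13, -1.16, -0.24 and -1.24 in Control livers. The 4 arrays of slide column 1 lay above the 4 of column 2, and the group difference was 0.02 (95% confidence interval -0.25 to 0.29, adjusted p = 0.986 in limma). It was 0.08 in column 1 and -0.04 in column 2. The small heat shock protein gene Hspb1 and the HSP40 gene Dnaja1 had the narrowest intervals, -0.18 to 0.13 and -0.12 to 0.17. Over the 5 cytosolic genes 2 lay above 0, with a median of -0.03, made of -0.04 in column 1 and 0.02 in column 2.

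Set side by side, the median difference was 0.02 for 14 ER lumen genes and -0.03 for 5 cytosolic genes, 0.05 apart, where single genes had standard errors of 0.065 to 0.148. The ER lumen median minus the cytosolic one was -0.04 within column 1 and 0.08 within column 2. The order of the lists thus turned between the columns. In Cy5 alone, without the reference channel, the median difference was 0.04 for the ER lumen genes and 0.004 for the cytosolic genes. Sorted by the promoter elements printed above, the 7 tested genes with the ER stress element (Hspa5, Hsp90b1, Calr, Canx, Dnajc3, Creld2 and Xbp1) had differences between -0.15 and 0.12. The 4 tested genes with the longer heat shock element had -0.16 for Hspa8, 0.03 for Dnaja1, -0.16 for Hspd1 and -0.15 for Hspe1. No gene of either kind passed. The genes were chosen with earlier results known, and no test was made of this contrast.

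The mitochondrial chaperonins, which fold proteins in the matrix as HSP60 with its lid HSP10, had the lowest median of the lists with over 1 gene tested, -0.16. Hspe1, which encodes HSP10, had log2 ratios of 0.33, 0.72, 0.52 and 0.78 in 0.5MAhR livers and 0.99, 0.58, 0.76 and 0.63 in Control livers. The groups overlapped, though the 0.5MAhR mean was the lower one in each column, with differences of -0.12 in column 1 and -0.18 in column 2. The difference of -0.15 had an unadjusted p of 0.0815 and an adjusted p of 0.843 in limma, and the other probe of Hspe1 gave -0.11. Its neighbour Hspd1, which shares its promoter region, differed by -0.16 (adjusted p = 0.89, limma). In Cy5 alone Hspd1 differed by -0.07 and Hspe1 by -0.10. In Cy3, the reference channel, Hspd1 differed by 0.05 and Hspe1 by -0.0002. Hsf1, the regulator of the heat shock arm, had -1.09, -1.16, -1.18 and -1.23 in 0.5MAhR livers and -1.24, -0.94, -1.03 and -1.03 in Control livers. All values lay close together, and the difference was -0.11 (95% confidence interval -0.27 to 0.06, adjusted p = 0.885 in limma).

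**Figure D2:**
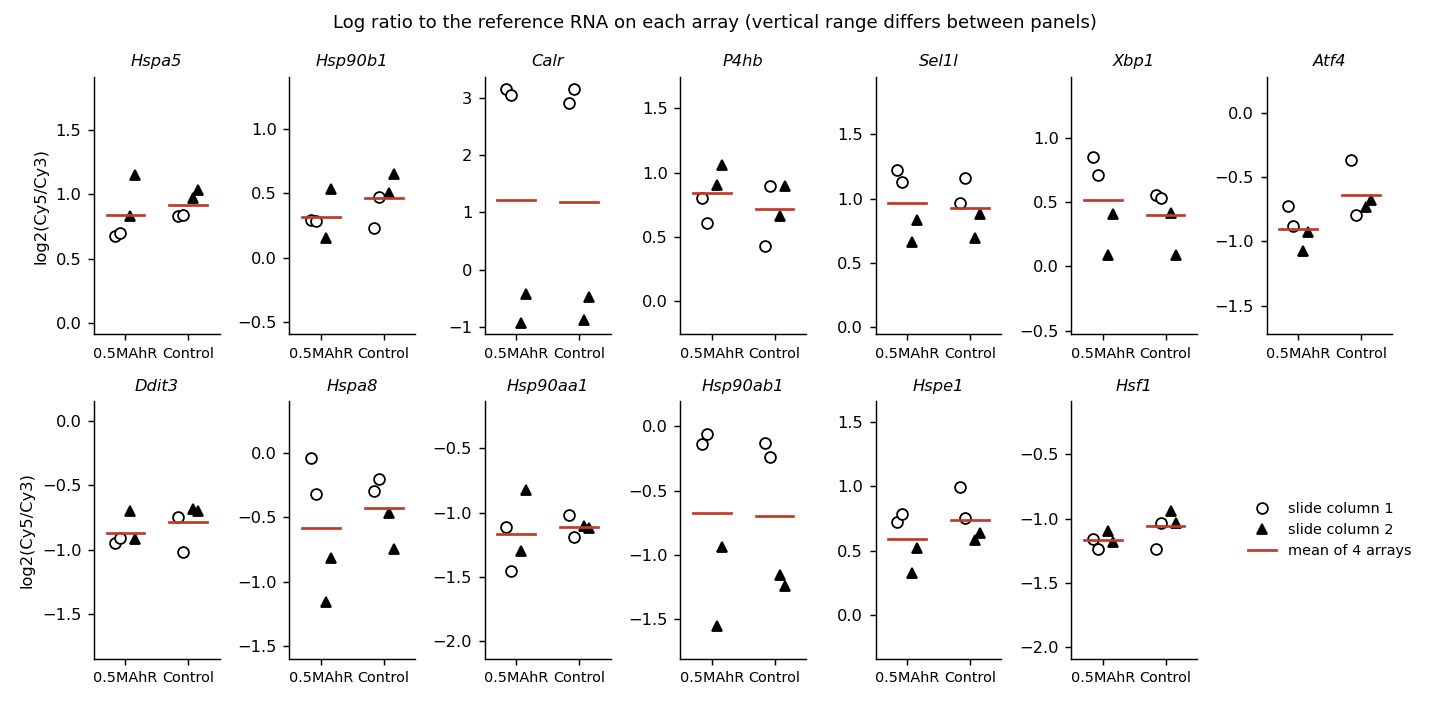
Log2(Cy5/Cy3) on each array for the 13 genes given per array, 0.5MAhR left and Control right, with open circles for slide column 1, filled triangles for column 2 and a red line at the mean of 4 arrays. The groups overlap in every panel, and the Calr and Hsp90ab1 values separate by column.

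Wider lists of the same pathways had no call either. For comparison with the counts that follow, 46.8% of all genes tested had a difference above 0. Of the other ER folding and glycoprotein quality control genes, 17 of 23 tested lay above 0 with a median of 0.05, and 0 of 23 passed. The upward lean was not shared by the slide columns, since the median of these 23 genes came to -0.05 for column 1 against 0.12 for column 2. Between the columns 8 of 23 kept their sign, where 5473 of all 10567 genes tested did. Ero1a, the oxidase that recharges PDI, had the largest difference of them at 0.29 (-2.08 ± 0.14 in 0.5MAhR livers and -2.37 ± 0.09 in Control livers, SD, n = 4 each). All its 0.5MAhR arrays lay above its Control arrays, and its adjusted p was 0.544 in limma. It was 1 of 23 genes of this list whose groups did not overlap, where 1.32% of all genes tested did not. Ppib, the ER cyclophilin B, differed by -0.15. Of the other ER-associated degradation genes, 5 of 14 lay above 0, and the ubiquitin-conjugating enzyme gene Ube2g2 differed by -0.32 (adjusted p = 0.474, limma) and Ube2j1, another such enzyme, by 0.13. Of 10 other sensors and regulators 4 lay above 0, with differences of 0.09 for Bax and -0.09 for Bak1, the pro-apoptotic effectors of the mitochondrial outer membrane. Of the other ATF4 targets 9 of 18 lay above 0, with 0 of 18 passing. Among these, Chac1, a glutathione-degrading enzyme, differed by 0.19, and the stress-response gene Nupr1 by -0.28. Phgdh, an enzyme of serine synthesis named here after its values were seen, had the highest difference of these 18 genes, 0.48 (-2.72 ± 0.74 in 0.5MAhR livers and -3.20 ± 0.50 in Control livers, SD, n = 4 each, adjusted p = 0.772 in limma). Of the other cytosolic chaperones and HSF1 targets 10 of 28 lay above 0, and St13, the HSP70-interacting protein HIP, differed by 0.31 (adjusted p = 0.394, limma) and Stub1, the ubiquitin ligase CHIP, by -0.12. The TRiC chaperonin and prefoldin list had 3 of 12 above 0, with 0.08 for Cct4 and -0.12 for Tcp1, subunits of the chaperonin. The other mitochondrial chaperones and proteases had 1 of 11 above 0 and a median of -0.08. Htra2, a protease of the intermembrane space, differed by 0.08 and Dnajc19, a co-chaperone of the import motor, by -0.14. None of these 7 lists had a gene past the threshold. The members of these lists were also chosen with earlier results known.

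The ER lumen genes also varied between arrays within each group. Each gene's values were set against its mean over the 4 arrays of the same slide column. On 0.5MAhR 3, 12 of 14 ER lumen genes lay above that mean, and on Control 7 it was 13 of 14. Both arrays lay in row 3 of the slide, in different columns. On Control 8 the count was 11 of 14. The counts were 5, 6 and 3 of 14 on 0.5MAhR 1, 2 and 4, and 3 and 2 of 14 on Control 5 and 6. The mean deviation of the ER lumen genes was -0.07, -0.01, 0.15 and -0.05 on 0.5MAhR 1 to 4, and -0.10, -0.10, 0.16 and 0.02 on Control 5 to 8. By slide row, with 0.5MAhR before Control, these were -0.07 and -0.10 in row 1 and -0.01 and -0.10 in row 2. They were 0.15 and 0.16 in row 3 and -0.05 and 0.02 in row 4. The highest array was of the Control group in column 1 and of the 0.5MAhR group in column 2. A gene's deviations sum to 0 over the 4 arrays of a column, so a high array there places others low. The low arrays are therefore not a separate result. Over all genes tested the share above the column mean lay between 41.7% and 55.4%, and the mean deviation between -0.03 and 0.02. Other lists also had arrays with most genes on 1 side. The 23 other ER folding genes had 20 above the mean on 0.5MAhR 3, 15 on Control 7 and 4 on Control 6. On 0.5MAhR 1 they had 13 of 23 above it with a mean deviation of 0.04, on the other side of 0 from the ER lumen genes. Of the 18 other ATF4 targets 15 lay above the mean on 0.5MAhR 3, 6 on Control 7 and 1 on Control 6. Of the 14 other ER-associated degradation genes 10 lay above it on 0.5MAhR 3, on Control 7 and on Control 8, and 12 on 0.5MAhR 4. Of the 5 cytosolic genes 1, 4, 4 and 1 lay above it on 0.5MAhR 1 to 4, and 3, 2, 4 and 3 on Control 5 to 8. The cytosolic genes had mean deviations of -0.18, 0.05, 0.13 and -0.07 on 0.5MAhR 1 to 4, and 0.02, 0.05, 0.01 and 0.003 on Control 5 to 8. The part of slide row in this pattern was not tested. The fit with row and column together given above concerned group differences only.

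**Figure D3:**
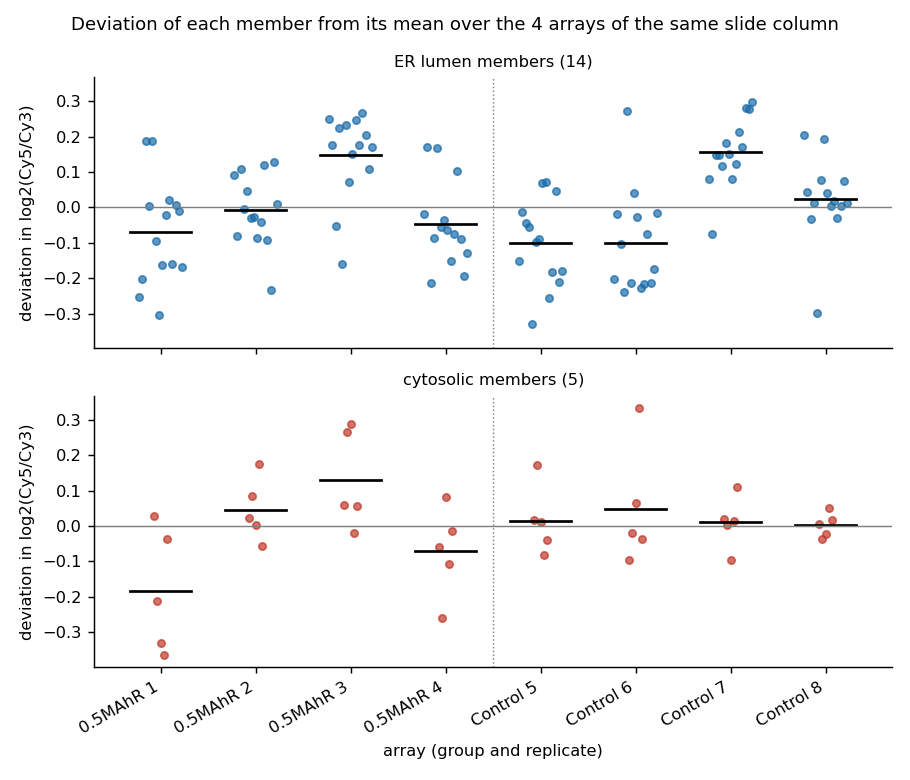
Deviation of each ER lumen gene (above, 14 genes) and cytosolic gene (below, 5 genes) from its own mean over the 4 arrays of the same slide column, by array, with a black line at the mean of the genes. The ER lumen genes stand high on 0.5MAhR 3 and Control 7, at means of 0.15 and 0.16.

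More of these genes differed between slide columns than between the groups. The log ratio differed between column 2 and column 1 past an adjusted p of 0.05 in 18 of 30 genes, where 56.9% of all genes tested did. Of the 30 genes, 3 were higher and 15 lower in column 2, where 28.1% of all genes tested were higher and 28.8% lower. In Cy3 alone, which by the labels held the same reference RNA on all arrays, 12 of 30 genes differed between the columns, where 38.2% of all genes did. Of these 11 were higher and 1 lower in column 2, where 17.7% of all genes tested were higher and 20.4% lower. Each column held 2 arrays of each group, so an additive shift between the columns cancels in the group comparison.

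Calr had the largest absolute column difference of all 10567 genes tested, in the log ratio and in Cy3. Its net Cy3 signal, foreground less background, was 8246 and 7503 on 0.5MAhR 1 and 3 and 8022 and 7706 on Control 6 and 8, all in column 2. In column 1 it was 1383 and 1482 on 0.5MAhR 2 and 4 and 1454 and 1336 on Control 5 and 7. The reference signal at this probe was thus 5.93-fold higher in column 2 after quantile normalisation, a difference of 2.57 on the log2 scale (SE 0.031, adjusted p = 1.63e-09, limma). In Cy5 alone Calr was 2.29-fold lower in column 2 (-1.19, adjusted p = 1.55e-05, limma), so that both channels moved the log ratio the same way. The log ratio was 13.4-fold lower in column 2, a difference of -3.74 (SE 0.13). With the scanner software's processed signals it was -2.64, so this size depends on the processing. The direction did not change in the alternatives of background, offset, normalisation, filter and probe choice that kept the ratio. Between the groups, Calr's Cy3 differed by 0.001 (adjusted p = 0.999, limma).

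Hsp90ab1 had the fourth largest absolute Cy3 difference of all genes, 2.56-fold higher in column 2 (1.35, SE 0.052, adjusted p = 1.02e-06, limma). Its net Cy3 signal was 13331 and 13871 on 0.5MAhR 1 and 3, and 13506 and 14070 on Control 6 and 8, in column 2. In column 1 it was 5845 and 6581 on 0.5MAhR 2 and 4, and 5221 and 5705 on Control 5 and 7. Cy5 alone differed by 0.20 at this probe (adjusted p = 0.157, limma), and the log ratio by -1.08. The other probe of Hsp90ab1 differed by 0.39 in Cy3 and -0.11 in the log ratio, so the large shift was seen at 1 of 2 probes of the gene. Hsp90aa1 was similar in this respect, since the Cy3 of 1 of its 3 probes differed by 1.11 between columns and that of the brightest by 0.01. The 4 probes of Hspa8 gave column differences in the log ratio of -0.59, 0.79, 0.27 and 0.07. Probes of 1 gene thus disagreed in sign between columns, while all 4 gave group differences below 0. Cytosolic chaperone genes have close paralogs and processed copies, whose signal at a probe could not be told apart here.

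Canx, the membrane-bound partner of calreticulin, had Cy3 1.59-fold higher in column 2 and Cy5 higher by 0.002 on the log2 scale (adjusted p = 0.989, limma), with a log ratio difference of -0.50. Other column differences came with no Cy3 call. Hspb1 differed by -0.87 in the log ratio, -0.82 in Cy5 and 0.05 in Cy3. Dnaja1 ran the other way, with 0.77 in the log ratio, 0.69 in Cy5 and -0.08 in Cy3. Creld2 differed by -0.75 in the log ratio, -0.78 in Cy5 and -0.09 in Cy3. Pdia4 combined both, at -1.14 in the log ratio, -0.72 in Cy5 and 0.38 in Cy3. At Hsp90b1 both channels were higher in column 2, by 0.45 in Cy5 and 0.32 in Cy3, and the log ratio differed by 0.14 (adjusted p = 0.255, limma).

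**Figure D4:**
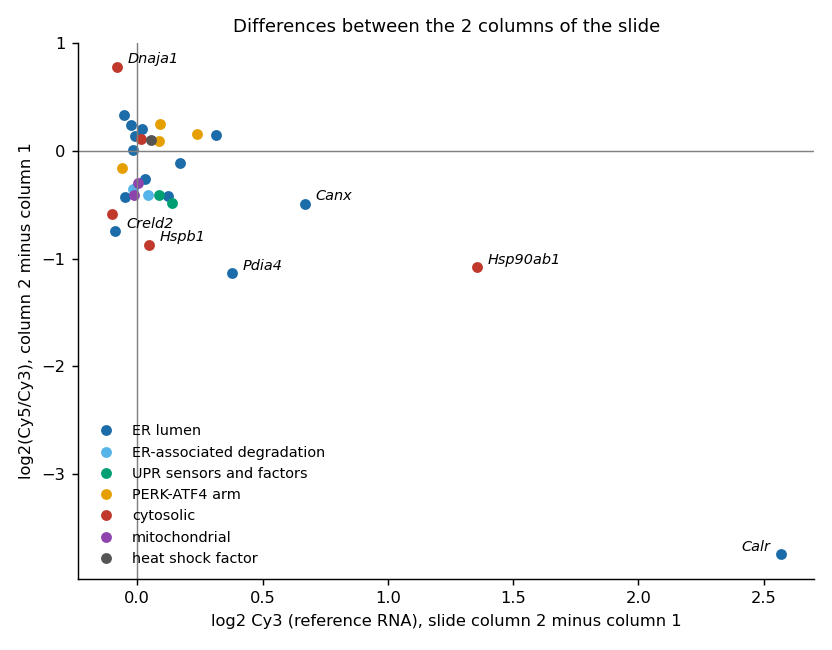
Difference between slide column 2 and column 1 in log2 Cy3 (horizontal, the reference RNA) and in log2(Cy5/Cy3) (vertical) for the 30 genes tested, coloured by role. Calr lies far from the rest at 2.57 and -3.74, Hsp90ab1 at 1.35 and -1.08, and Hspb1, Creld2 and Dnaja1 have log ratio differences with Cy3 near 0.

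Between the groups, no difference in the reference channel passed the threshold at these probes. Cy3 differences between 0.5MAhR and Control arrays ran from -0.03 to 0.07, and 0 of 30 passed, where 0.00946% of all genes tested did. Of the 30 genes 23 lay above 0, where 49% of all genes did. All 5 cytosolic genes and 10 of 14 ER lumen genes were among the 23. The largest were Hsp90ab1 with 0.07 and Hspa8 with 0.07. Hspa8 had an unadjusted p of 0.0102 and an adjusted p of 0.999 in limma. Hspd1, with 0.05, had an unadjusted p of 0.0458 and an adjusted p of 0.999 in limma.

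Relative to the reference RNA, the ER lumen and cytosolic genes lay on different sides of 0 in both groups. Of 14 ER lumen genes, 10 lay above the reference on all 8 arrays and 1 below on all 8, with medians of 0.67 in 0.5MAhR livers and 0.63 in Control livers. Dnajc3, which encodes the co-chaperone p58IPK, had the highest mean log ratio of the set over both slide columns, 2.24 ± 0.23 in 0.5MAhR livers and 2.21 ± 0.36 in Control livers (SD, n = 4 each). In column 1 alone its mean was 2.44, below the 3.07 of Calr. Of the 5 cytosolic genes, 4 lay below the reference on all 8 arrays and Dnaja1 above it, with medians of -0.67 in 0.5MAhR livers and -0.69 in Control livers. Hspb1 had the lowest log ratio of the set, -4.17 ± 0.48 in 0.5MAhR livers and -4.15 ± 0.53 in Control livers (SD, n = 4 each). All 4 genes of the PERK-ATF4 arm lay below the reference, with the lowest log ratio for Asns. Both mitochondrial chaperonins lay above it. Each such value compares liver with cell lines for 1 gene, is not a level that ranks genes by abundance, and depends on where each array's log ratios are centred. With median centring in place of loess, 1 of 14 ER lumen genes lay above the reference on all arrays and the ER lumen median over all arrays was -0.27, with -1.69 for the cytosolic genes. The count of cytosolic genes below the reference on all arrays, 4 of 5, was 2 with an offset of 16 and 3 with the processed signals or with the deposited values. The ER lumen median was above the cytosolic one under median centring and under the 7 others of background, offset, normalisation, filter and probe that kept the ratio.

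The tissue label was checked by markers. All 10 hepatocyte markers were tested, with median log2 ratios of 7.05 in 0.5MAhR livers and 7.16 in Control livers, and 1 of 10 had a group difference above 0. Of 10 Kupffer cell and macrophage markers, 9 had a difference above 0, with a median of 0.17 in column 1 and 0.06 in column 2. The sign was the same in both columns in 6 of 10. The summed normalised Cy5 level of these markers ranged from 10500 to 13820 in 0.5MAhR livers and from 9646 to 11780 in Control livers. Plasma cells are rich in ER, and of their defining genes Jchain, Mzb1, Derl3 and Tnfrsf17 did not pass the filter or had no named probe. Of 10 B cell and plasma cell markers 3 were tested, Cd79b, Pou2af1 and Cd74. Their summed Cy5 level was 915.5 to 2395 in 0.5MAhR livers and 792.6 to 1910 in Control livers. The group ranges also overlapped for T and NK cell, stellate, endothelial, cholangiocyte and erythroid markers. Erythroid sums were 294000 to 331500 in 0.5MAhR livers and 219900 to 311100 in Control livers. Fewer cells of a type and less RNA per cell cannot be told apart in whole liver, and the part of the macrophage markers in the results was not tested. Median Cy5 signal was 81 to 94 intensity units over backgrounds of 68 to 73, and the share of spots well above it in Cy5 was 42.9% to 49.2%. No spot was saturated. Arrays of the same column correlated across genes with r of 0.981 to 0.991 and arrays of different columns with 0.938 to 0.962, where genes are no replicates.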

How the data were processed

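Liver RNA and reference RNA were hybridised to 8 arrays with the liver sample in Cy5, 4 from 0.5MAhR and 4 from Control. The file headers name Agilent Feature Extraction 11.0.1.1 as the scanner software, and the deposited median foreground and background intensity of each channel were used with the scanner's marks. The authors' deposited value table holds log2 ratios of Cy5 over Cy3. It followed loess log2 ratios without background correction with r of 0.997 to 0.998 and a slope of 0.995 to 1.00, its column medians were -0.0389 to -0.0326, and how it was centred is unknown.

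Using limma 3.58.1 (R 4.3.3), normexp with offset 50 corrected the background and loess normalised each array. Spots marked as outliers (771 to 956 an array) and control spots were left out. A probe was kept where 3 or more arrays of either group marked its Cy5 signal as well above background. Accessions gave symbols to 17997 probes through a RefSeq gene table (GRCr8, names only), and the brightest probe in Cy5 stood for a gene. Groups were compared by lmFit and eBayes on all 8 arrays with slide column as covariate, two-sided, with Benjamini-Hochberg adjustment over 10567 genes and a threshold of 0.05. Slide column came from the position suffix of the scan. Cy3 and Cy5 were also fitted alone after quantile normalisation. The fit was tested on simulated data. Genes given per array followed a rule: up to 2 per list with the smallest unadjusted p (1 for lists of 4 or fewer), 5 set genes and those with the largest Cy3 differences. The members and lists were chosen with earlier results of these data known. Alternatives were no column, slide row, each column alone, other background, offset, normalisation, filter and probe choices, the deposited values and leaving out each array. Slide column and row together was chosen after seeing the data.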

Additional observations from a re-analysis of the deposited data

Results flagged for a closer look

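Among 72 groups of 4 values (a gene or list in a group) tested for an array far from the other 3, 2 were flagged. Chance alone flags about 1 in 20 where the 4 values share a single distribution. The log ratios given here came from both slide columns without adjustment for column, so that rate need not hold. The log2 ratio of Pdia3 on Control 7 was 0.913, against 0.56, 0.55 and 0.59 on the other Control arrays, while 0.5MAhR arrays had 0.47, 0.65, 0.89 and 0.84. The log2 ratio of Ddit3 on 0.5MAhR 1 was -0.698, against -0.95, -0.92 and -0.91 on the other 0.5MAhR arrays. On Control arrays it was -0.74, -0.68, -1.02 and -0.70.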

How the results depend on the processing

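In the group comparison, 0 of the 13 genes given per array changed its call over 273 values from alternatives with a test, with a smallest adjusted p of 0.401. Their sign turned in 18 of 299 values, the single slide columns included, for Calr, Hsp90aa1, Hsp90ab1, Sel1l, Hspa8 and Xbp1, none of which passed. The count of all genes past the threshold, 5 with slide column fitted, was 1 without it, 0 with slide row in its place, 3 with median centring, 0 with processed signals, 14 in Cy5 alone, 3 with probes well above background on all 8 arrays, 3 with a trended robust fit, and 1 to 11 when single arrays were left out (11 without 0.5MAhR 2, 8 without Control 7, and 1 or 2 without any other array). None of the 30 genes was among them in any of these. The Cy3 count between groups, 1, was 6 with median centring and 1 to 7 without single arrays (7 without 0.5MAhR 2, 2 without 0.5MAhR 3). The column count in the log ratio, 6016, was 3749 with median centring. The ER lumen median minus the cytosolic median, 0.05, turned to -0.04 in slide column 1 alone, -0.002 with the mean over a gene's probes and -0.0004 without Control 5. The ER lumen median, 0.02, turned to -0.08 in slide column 1, -0.05 without 0.5MAhR 3, -0.004 without Control 5 and -0.04 without Control 6. The cytosolic median, -0.03, turned to 0.02 with median centring, with the mean over probes and in slide column 2, 0.004 in Cy5 alone and 0.01 without 0.5MAhR 1. The causes were not tested. No paired analysis was possible because the groups share no replicate number in the labels, and slide row, with 1 array of each group per row, was fitted instead. Ern1 and Hsph1 were left out by the filter on dim probes. Without it Hsph1 differed by 0.05 and the cytosolic median was -0.002. The number of arrays limits the precision.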
